A study of Mus musculus with 58 samples.

Results

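Amacrine cells are the inhibitory interneurons of the inner retina, and 9 genes that carry their transmitters and identity were followed here among the 52459 genes of the count table. The 9 were listed by symbol, and the rule that lists them uses no measured value, but they were chosen with earlier results of these data known. They were Gad1 and Gad2, which encode the enzymes that make GABA from glutamate, Slc32a1, the transporter that loads GABA and glycine into synaptic vesicles, and Slc6a9, the glycine transporter GlyT1. The others were Chat, choline acetyltransferase, the transcription factors Tfap2a, Tfap2b and Pax6, and Calb2, the calcium-binding protein calretinin. All 9 were found in the table. All 9 also passed the filter on low counts, which kept 19120 genes with a median above 4 normalized read counts over all libraries.

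As background, amacrine cells take input from bipolar cells and send inhibition back to bipolar cells, to ganglion cells and to each other. Most release either GABA or glycine, and glycinergic amacrine cells are marked by GlyT1, which takes glycine up again after release. Starburst amacrine cells release acetylcholine as well as GABA and are needed for direction selectivity in the retina. Several members are not confined to amacrine cells: horizontal cells use GABA, and Pax6 and calretinin are also found in ganglion cells.

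The retinas came from 4-month-old male mice kept in equal periods of light and dark from birth, and were taken at ZT1, ZT5, ZT9, ZT13, ZT17 and ZT21, where ZT0 is lights on and ZT12 lights off. Control retinas (n = 30) were from wild-type littermates on the C57/BL/6 background, and diabetic retinas (n = 28) from heterozygous C57BL/6-Ins2Akita/J males, in which a mutant insulin damages the beta cells of the pancreas and leads to hyperglycemia. Control groups held 5, 6, 5, 5, 5 and 4 libraries in the order of the time points, and diabetic groups 5, 5, 5, 4, 4 and 5. All mice were perfused with saline, 1 library was made from each individual retina, and night dissections were done under dim red light. The mutation changes the Ins2 protein and not the number of reads, so the counts gave no check of the genotype labels. Whole retinas were sequenced, so fewer cells of a type and less RNA per cell cannot be told apart in any value below.

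The 58 libraries held 7773117 to 22147398 counted reads, and no pair of replicates agreed within sampling noise. Along the first principal component, 3 libraries stood apart with scores of 49.4 to 58.5 against -34.7 to 39.4 for the other 55. They were replicates 1 and 3 of control ZT17 and replicate 3 of diabetic ZT17, and calls of members that were lost or gained without them are given both ways. The next library, control ZT9 replicate 4 at 39.4, was kept, and the one below it scored 28.8. The cut was therefore a choice, and it takes out ZT17 values only. A further 3 control libraries (ZT1 replicate 6, ZT17 replicate 5 and ZT21 replicate 2) held over 1000 normalized counts of lens genes. Retinal pigment epithelium genes were read in every library and varied by time of day, as given beside the results on time of day.

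In GRCm38 coordinates of a Gencode annotation, the genes that make or load GABA lie on chromosome 2, with Gad1 at chr2:70553072-70602014 (+ strand), Gad2 at chr2:22622205-22693874 (+ strand) and Slc32a1 at chr2:158610767-158615748 (+ strand). The glycine transporter lies apart, with Slc6a9 at chr4:117834506-117875198 (+ strand), as does Chat at chr14:32408203-32465989 (- strand). For the transcription factors the places are Tfap2a at chr13:40715302-40738376 (- strand), Tfap2b at chr1:19208914-19238576 (+ strand) and Pax6 at chr2:105668900-105697364 (+ strand), and for calretinin Calb2 at chr8:110137502-110168210 (- strand). Slc18a3, the vesicular acetylcholine transporter, lies inside the span of Chat at chr14:32462438-32464850 on the same strand, and shares 0 exonic bases with it. The strand setting of the read counting is not given in the sources used here, so genes with an exon on the other strand are less certain. Of the exonic bases of Slc6a9, 1429 (27.8%) are shared with Ccdc24, and of those of Slc32a1, 697 (24.9%) are shared with the antisense gene Gm14205. Slc6a9 also shares 511 (9.94%) with Gm17114, and Tfap2a shares 380 (7.75%), 265 (5.4%) and 73 (1.49%) with 3 antisense genes. Exons of Gad1, Gad2, Chat and Pax6 overlap no exon of another gene.

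Sequence before a transcription start is shown for Chat, the member that differed between genotypes, and for its neighbour Slc18a3. It is also shown for Slc6a9, Slc32a1 and Tfap2b, which passed at least 1 test of time of day. The sequences are RefSeq's for GRCm38.p6, 5′ to 3′ on the strand of the gene, and stop where an annotated exon begins. Promoter windows of 300 bases, from 250 before to 50 after a start, were found for 8 of the 9 members. They were searched on both strands for the E-box CACGTG, the cyclic AMP response element TGACGTCA and AGGTCA, the core of the sites of ROR and REV-ERB receptors, and capitals mark a match. Of the 32851 windows in the table, 7.15% hold the E-box, 1.79% the cyclic AMP element and 16.3% AGGTCA. The Chat window holds 1 E-box at positions -98 to -93, and the first window of Pax6 holds the cyclic AMP element at positions -76 to -69. The other windows of the members hold none of the 3 motifs, which says only that these letters are not in them. Slc6a9 has windows at 3 starts, and the sequence shown is from the third. That window left 195 bases outside exons, against 0 and 93 for the others.
Chat, chr14:32465990-32466159 on the minus strand, positions -250 to -81: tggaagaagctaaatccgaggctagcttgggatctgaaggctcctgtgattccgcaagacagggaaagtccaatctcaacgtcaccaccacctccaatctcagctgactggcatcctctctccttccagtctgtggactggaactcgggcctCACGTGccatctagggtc
Slc18a3, chr14:32464851-32465100 on the minus strand, positions -250 to -1: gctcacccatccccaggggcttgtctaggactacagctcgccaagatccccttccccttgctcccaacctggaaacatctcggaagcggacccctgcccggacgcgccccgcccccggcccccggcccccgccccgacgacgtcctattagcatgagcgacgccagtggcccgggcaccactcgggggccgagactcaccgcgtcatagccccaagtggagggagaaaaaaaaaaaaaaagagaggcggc
Slc6a9, chr4:117855297-117855491 on the plus strand, positions -250 to -56: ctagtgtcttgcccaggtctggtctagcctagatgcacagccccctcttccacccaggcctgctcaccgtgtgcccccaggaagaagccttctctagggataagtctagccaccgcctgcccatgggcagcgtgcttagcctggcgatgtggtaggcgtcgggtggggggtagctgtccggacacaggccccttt
Slc32a1, chr2:158610508-158610757 on the plus strand, positions -250 to -1: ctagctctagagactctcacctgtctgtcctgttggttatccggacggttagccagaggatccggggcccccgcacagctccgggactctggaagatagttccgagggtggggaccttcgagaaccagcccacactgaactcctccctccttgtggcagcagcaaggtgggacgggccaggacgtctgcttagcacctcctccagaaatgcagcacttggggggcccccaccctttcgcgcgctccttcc
Tfap2b, chr1:19211804-19212053 on the plus strand, positions -250 to -1: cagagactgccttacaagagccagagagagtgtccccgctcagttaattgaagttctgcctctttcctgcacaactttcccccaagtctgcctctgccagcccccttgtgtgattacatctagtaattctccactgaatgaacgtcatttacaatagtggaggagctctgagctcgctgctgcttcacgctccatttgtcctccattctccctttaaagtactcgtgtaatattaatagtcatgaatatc

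Per kilobase of exonic length, calretinin was the highest of the 9 and Chat the lowest. The length takes in every annotated exon of a gene, so the order between genes depends on it. Before the division Pax6 was highest with a mean of 3955 normalized counts, Calb2 had 2397, and Chat was again lowest with 153. The mean level of Calb2 over the 58 libraries was 1375 ± 227 normalized counts per kb (SD), followed by Slc6a9 with 549 ± 57.4. Tfap2b (458 ± 39.0), Slc32a1 (448 ± 71.1) and Gad1 (408 ± 36.0) came next. These last 3 were not separated beyond their spread: Tfap2b was above Slc32a1 in 40 of 58 libraries, and Slc32a1 above Gad1 in 37 of 58. Pax6 followed with 338 ± 27.2 per kb, then Tfap2a with 161 and Gad2 with 138, with Tfap2a above Gad2 in 46 of 58 libraries. Chat had 32.4 ± 5.38 normalized counts per kb and was below Gad2 in 58 of 58. In reads, Chat ranged from 68 to 288 per library and is therefore the least precisely counted member, while Pax6 ranged from 2030 to 6070. Over all libraries, Pax6, Tfap2b and Gad1 were the steadiest, with coefficients of variation of 8.04%, 8.51% and 8.81%, and Chat and Calb2 varied the most, with 16.6% and 16.5%.

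**Figure D1:**
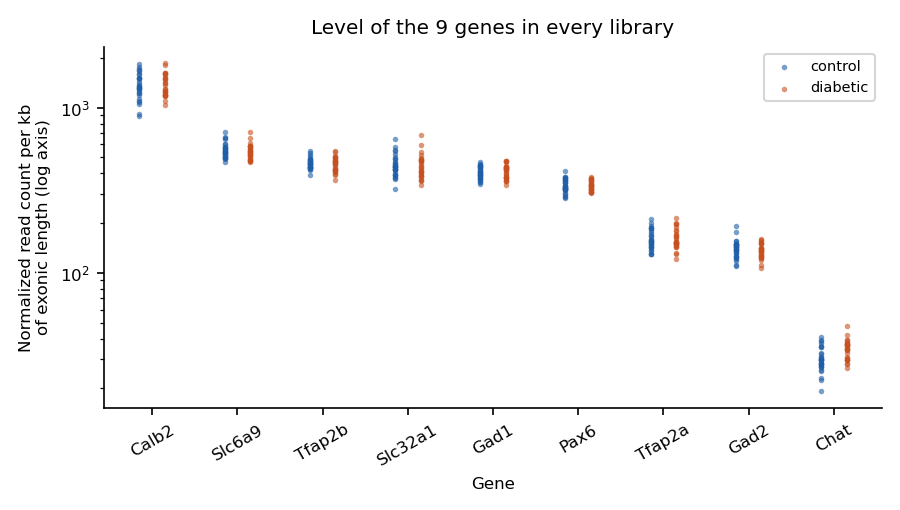
Level of the 9 genes in every library, in normalized read counts per kb of exonic length on a log axis, with control libraries in blue and diabetic ones in orange. Calb2 lies highest around 1375 and Chat lowest around 32.4, with Tfap2b, Slc32a1 and Gad1 overlapping.

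The genes that make GABA did not pass any test between control and diabetic retinas. Gad1 had a mean of 3097 ± 257 normalized read counts (SD) over the 30 control libraries and 3143 ± 296 over the 28 diabetic ones, a log2 fold change of 0.021 ± 0.033 (SE), adjusted p = 0.851 for diabetic against control by edgeR. The 95% confidence interval of this difference ran from -3.09% to 6.21%. Gad2, with 823 ± 102 in control and 798 ± 80.4 in diabetic retinas, had a log2 fold change of -0.043 ± 0.042 (SE), adjusted p = 0.700, and its interval ran from -8.38% to 2.78%. Slc32a1, which loads the vesicles, had a log2 fold change of -0.011 ± 0.056 (SE), adjusted p = 0.964, with an interval of -8.10% to 7.19%. In these 3 genes the diabetic and control groups overlapped at every time point.

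By time of day, the level of Gad1 was highest at ZT21 in both genotypes, with 3288 ± 72.9 (SD, n = 4) for control and 3339 ± 179 (SD, n = 5) for diabetic libraries. Its lowest group means were 2909.5 ± 214 (SD, n = 5) for control ZT9 and 2991 ± 377 (SD, n = 5) for diabetic ZT1. A rhythm with a period of 24 h was tested with empirical JTK_CYCLE, a rank test against shuffled series, and a gene was called rhythmic with an unadjusted p under 0.05 and a minimum fold between its highest and lowest library, which all 9 members passed. Gad1 did not pass in control (p = 0.291, permutation) or diabetic retinas (p = 0.357), nor did Gad2 (p = 0.369 and 0.111). The highest control mean of Gad2 was at ZT13, where single libraries ranged from 729 to 1123 normalized counts.

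Slc32a1 had its highest group means at ZT17 in both genotypes, but at ZT21 without the 3 libraries that stood apart (1329 at ZT21 against 1279 at ZT17 in control, 1376 against 1266 in diabetic libraries). In control retinas its 5 libraries at ZT17 gave 1457.8, 1277.5, 1800.2, 1316.7 and 1241.9 normalized counts, against a range from 1065.7 to 1293.8 with a median of 1146.0 over 6 libraries at ZT5. In diabetic retinas the 4 libraries at ZT17 gave 1354.5, 1913.4, 1199.3 and 1244.4, against 1121.0, 1100.6, 1135.4, 1501.2 and 1021.0 at ZT5. The highest value at ZT17 in each genotype came from a library that stood apart, and the ZT17 and ZT5 groups overlapped. ZT17 against ZT5 gave a log2 fold change of 0.27 ± 0.12 (SE), adjusted p = 0.113 in control and a log2 fold change of 0.27 ± 0.13 (SE), adjusted p = 0.229 in diabetic retinas. The rhythm test gave a permutation p = 0.113 and 0.0546. With both genotypes in 1 contrast, a comparison chosen after the values were seen, the log2 difference between ZT17 and ZT5 was 0.27 (adjusted p = 0.0201). It was 0.12 (adjusted p = 0.435) without the 3 libraries that stood apart.

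The glycine transporter Slc6a9 was higher at ZT17 than at ZT5 in control retinas, and was called rhythmic in both genotypes. At ZT17 the 5 control libraries held 3343.3, 2808.0, 3666.9, 3106.6 and 2970.2 normalized counts, and at ZT5 the control libraries ranged from 2518.8 to 2881.2 with a median of 2626.3 over 6 libraries. In diabetic retinas the values at ZT17 were 2996.4, 3679.5, 2890.6 and 2793.7, and at ZT5 2660.5, 2483.0, 2464.1, 2999.1 and 2441.1. At ZT17, 4 of 5 control libraries and 1 of 4 diabetic libraries were above every ZT5 library of the same genotype, and 5 of 5 and 4 of 4 were above the ZT5 median. The night increase was a log2 fold change of 0.25 ± 0.076 (SE), adjusted p = 0.0194 in control retinas, a rise of 19.0% with an interval of 7.14% to 32.2%. In diabetic retinas it was a log2 fold change of 0.24 ± 0.084 (SE), adjusted p = 0.0739, and the interval ran from 4.78% to 32.2%.

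The remaining groups of Slc6a9 had lower means. Early in the day, at ZT1, the control values were 2730.3, 2622.0, 2547.9, 2968.9 and 2853.0 and the diabetic values 2659.3, 2408.3, 2520.2, 2815.0 and 2427.0. Control libraries at ZT9 gave 2886.5, 2770.7, 2413.5, 3405.2 and 2938.4, and diabetic ones 2719.1, 2610.0, 2874.4, 3377.9 and 2765.6. These groups overlapped each other and those at ZT5, with 1 high library at ZT9 in each genotype. After lights off, at ZT13, control libraries gave 2804.0, 2660.2, 2725.7, 3386.5 and 2964.8, and diabetic ones 3018.7, 2634.4, 3156.6 and 2917.8. By ZT21 the values were 2621.9, 2537.7, 2762.9 and 3085.3 in control and 2685.3, 2538.6, 2995.4, 2801.5 and 2747.9 in diabetic retinas. The means thus rose from 2655 ± 139.9 (SD, n = 6) at ZT5 to 3179 ± 336 (SD, n = 5) at ZT17 and were 2752 ± 241 (SD, n = 4) at ZT21 in control retinas.

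Slc6a9 was called rhythmic in control (p = 0.0326, permutation) and in diabetic retinas (p = 0.00323). Its relative amplitude was 7.04% ± 2.36 (SE) in control and 8.78% ± 2.40 (SE) in diabetic retinas, with acrophases of ZT15.5 ± 1.35 h (SE) and ZT14.6 ± 1.00 h (SE). After adjustment over the 19120 genes it passed in diabetic (adjusted p = 0.0368) and not in control retinas (adjusted p = 0.172), but a difference in rhythm between the genotypes was not detected (interaction of edgeR's cosine model, unadjusted p = 0.752). The 3 libraries that stood apart held the highest values of their groups, with 3343.3, 3666.9 and 3679.5 normalized counts. Without them the highest mean was still at ZT17 in control but at ZT13 in diabetic retinas. In that setting the ZT17 against ZT5 difference in control retinas was 0.16 on the log2 scale (adjusted p = 0.286), and the control rhythm had a permutation p = 0.157, while the diabetic rhythm passed before adjustment (p = 0.0105) and no longer after it (adjusted p = 0.0887). Without the filter on low counts the adjusted p in diabetic retinas was 0.0639. Between genotypes Slc6a9 had a log2 fold change of -0.032 ± 0.037 (SE), adjusted p = 0.778, with an interval of -7.14% to 3.02%.

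Choline acetyltransferase was the member that differed between genotypes, with more Chat in diabetic retinas. At ZT1 the 5 control libraries held 134.6, 126.6, 106.3, 129.9 and 141.9 normalized counts, and the 5 diabetic libraries 177.1, 139.9, 141.5, 172.2 and 132.8. Of the diabetic libraries, 5 of 5 were above the control median and 2 above every control library. At ZT5 control libraries ranged from 131.5 to 145.2 with a median of 139.4 over 6 libraries, and diabetic libraries gave 163.8, 185.7, 144.2, 185.7 and 172.3. Again 5 of 5 diabetic libraries were above the control median, and 4 of 5 above every control library. At ZT9 the values were 134.4, 90.3, 108.9, 168.3 and 146.2 in control and 132.7, 153.7, 174.7, 174.3 and 161.5 in diabetic retinas, with 4 of 5 diabetic libraries above the control median.

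In the night the means of the 2 genotypes lay closer. At ZT13 control libraries gave 154.2, 119.5, 126.1, 182.8 and 128.7, and diabetic libraries 140.2, 125.6, 139.4 and 170.6, with 3 of 4 above the control median. At ZT17 the control values were 193.7, 121.7, 185.3, 139.5 and 169.2, and the diabetic values 173.1, 225.7, 162.3 and 164.5, with 2 of 4 above the control median. The 3 libraries that stood apart held the highest values of both ZT17 groups (193.7, 185.3 and 225.7). At ZT21 control retinas gave 141.9, 151.4, 167.0 and 177.6, and diabetic retinas 174.7, 145.7, 197.0, 161.7 and 179.0, with 4 of 5 above the control median. Over the 6 time points the diabetic mean was higher at 6, 23 of 28 diabetic libraries were above the control median of their time point, and the groups overlapped at each.

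Over all time points Chat had 143 ± 24.1 normalized counts (SD) over the 30 control libraries and 163 ± 22.2 over the 28 diabetic ones. This was a log2 fold change of 0.20 ± 0.057 (SE), adjusted p = 0.0404 by edgeR's quasi-likelihood test with Benjamini-Hochberg adjustment, or 14.5% more with an interval of 5.80% to 23.9%. Chat was 1 of the 9 members called, beside 2.99% of the 19120 genes tested, where 1.58% were called higher and 1.41% lower. The call was close to the threshold: the adjusted p was 0.0288 with DESeq2 and 0.0180 with time point as a covariate, but 0.0792 without the filter on low counts, and the call was lost in 27 of 58 fits that each left out 1 library (adjusted p from 0.0201 to 0.0681 over the 58). Without the 3 libraries that stood apart it was 0.0177, and without those with lens RNA 0.0438. With a block for replicate number, which no label ties to a litter or batch, the call was also lost. Time point by time point, from ZT1 to ZT21, the log2 difference was 0.26, 0.31, 0.29, 0.011, 0.16 and 0.095. The unadjusted p was 0.0428, 0.0151 and 0.0307 at the first 3 of these, and none passed after adjustment (edgeR, adjusted p of at least 0.698). A dependence of the difference on time of day was not detected (interaction, unadjusted p = 0.328), and Chat was not called rhythmic in control (p = 0.0950, permutation) or diabetic retinas (p = 0.427).

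The other genes of acetylcholine handling did not pass between genotypes. Slc18a3, the vesicular transporter encoded within the Chat gene, and Slc5a7, which takes up choline, are named here for their place beside Chat, after their values were seen. Slc18a3 had 125 ± 21.4 normalized counts in control and 126 ± 20.6 in diabetic retinas (SD, n = 30 and 28), a log2 fold change of 0.0032 ± 0.060 (SE), adjusted p = 0.992, with an interval of -7.76% to 8.90%. Slc5a7 had 191 ± 39.4 and 214 ± 35.5, a log2 fold change of 0.16 ± 0.072 (SE), adjusted p = 0.251. Whether Chat and Slc18a3 differed from each other in their response was not tested. Of the 9 genes listed for acetylcholine transport, breakdown and receptors, 0 passed in edgeR, beside 2.99% of all genes, and 2 had an unadjusted p under 0.05, beside 15.5%, with a median log2 difference of 0.060 against 0.0012 over all genes.

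**Figure D2:**
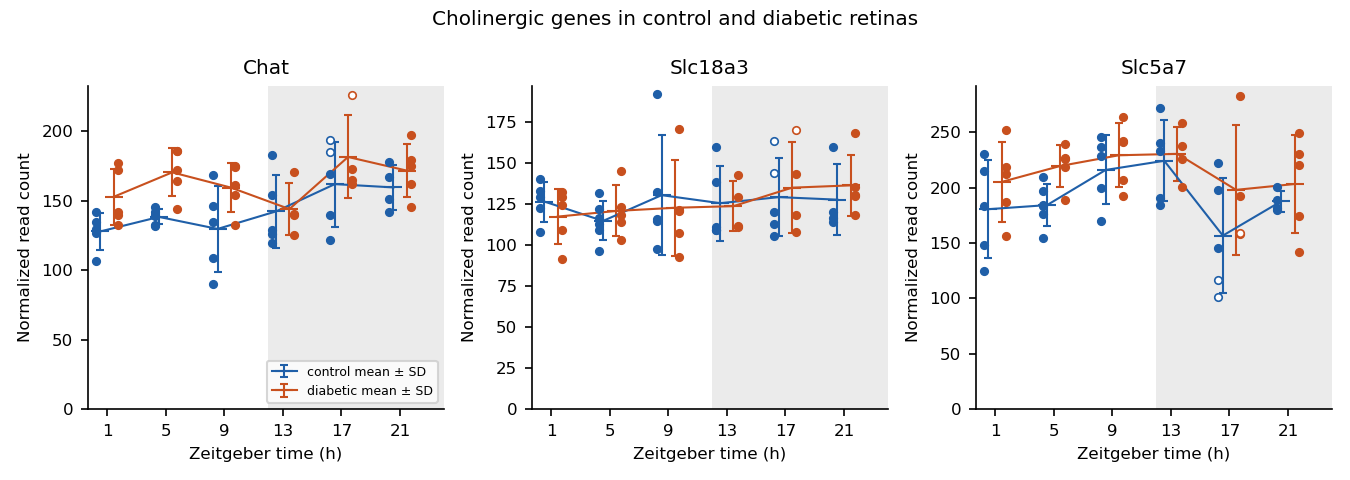
Normalized read counts of Chat, Slc18a3 and Slc5a7 against zeitgeber time, with each library as a point, group means joined by lines, bars for the SD, the dark period shaded, and the 3 libraries that stood apart as open points. Chat is higher in diabetic retinas (orange) than in control retinas (blue) at all 6 time points on the means, by the most at ZT1, ZT5 and ZT9, and Slc18a3 overlaps throughout.

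The remaining 8 members differed between genotypes by log2 values from -0.043 (Gad2) to 0.021 (Gad1), and the smallest adjusted p among them was 0.700. The median over the 9 members was -0.00068. Their 95% intervals lay within -8.38% and 9.99%. At single time points 0 of the 9 members passed in edgeR, and 0 in DESeq2, beside 0.0105%, 0.0209%, 0.00523%, 0%, 0.167% and 0% of all genes in edgeR from ZT1 to ZT21. The unadjusted p was under 0.05 for 1 member at ZT1, ZT5 and ZT9, in each case Chat, and for 0 members at ZT13, ZT17 and ZT21, beside 5.5%, 6.15%, 4.49%, 4.46%, 8.82% and 4.67% of all genes in the same order of time. Of 58 further genes in a wider list (GABA uptake, breakdown and receptors, glycine and acetylcholine genes, and amacrine identity genes), 56 passed the filter and 0 passed between genotypes over all time points or at any single one. Over all time points 9 of the 56 had an unadjusted p under 0.05, beside 15.5% of all genes.

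**Figure D3:**
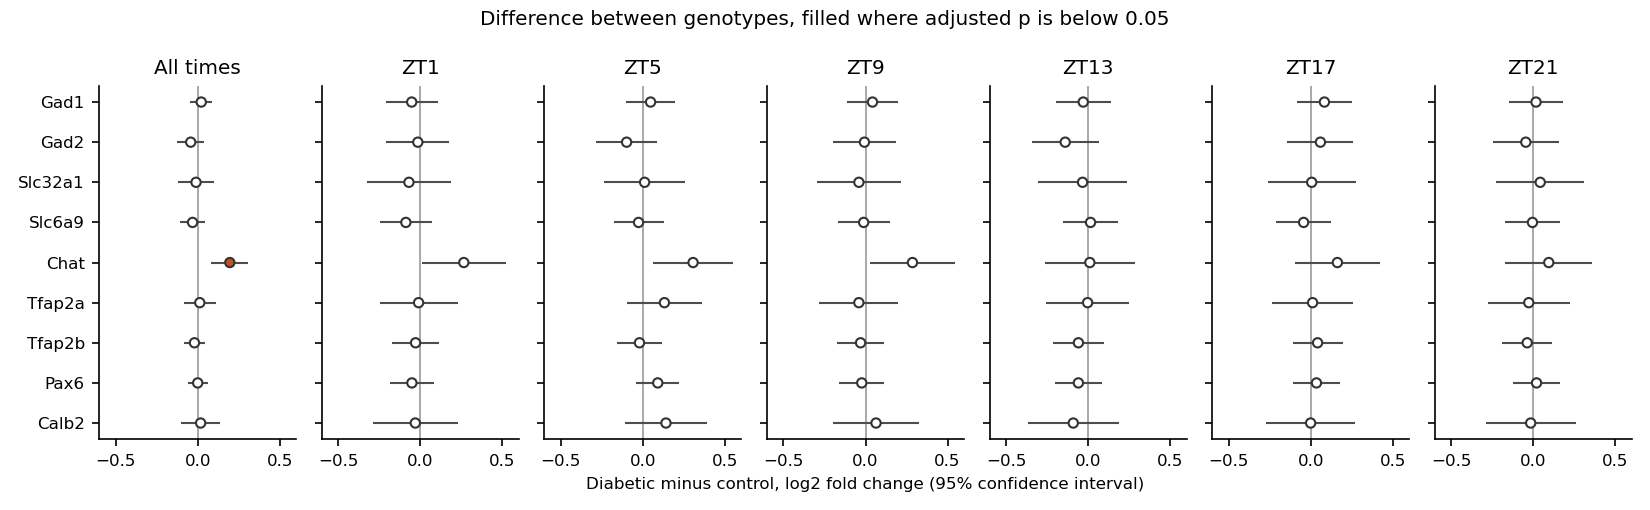
Log2 fold change of diabetic against control retinas for the 9 members over all time points and at each one, with 95% confidence intervals from edgeR and filled points where the adjusted p is below 0.05. Chat over all time points is the 1 filled point, at 0.20, and the other 8 members lie near 0.

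A few markers of other cells also differed between genotypes. Of the cone list (Opn1sw, Opn1mw, Arr3, Gnat2 and Pde6h), 2 of 5 genes were lower in diabetic retinas, beside 1.41% of all genes. The summed cone level ranged from 10526 to 12779 normalized counts in control and 9981 to 12406 in diabetic libraries. Of the lens list the 1 gene tested, Cryaa, was lower, with summed levels up to 31583 in control and 666 in diabetic libraries. The medians of the lens sums were 9.39 and 4.46, and sums over 1000 came only from the 3 control libraries with lens RNA. Of the microglia list 1 of 5 was lower, with summed levels of 218 to 357 and 199 to 349. None of the 7 ganglion cell, 3 horizontal cell, 6 bipolar cell or 6 rod markers passed in edgeR. Nor did any of the 5 Müller glia, 4 endothelium or 5 retinal pigment epithelium markers. Ganglion cells also hold Calb2 and Pax6, and their marker sums ranged from 7482 to 11454 in control and 7879 to 11732 in diabetic libraries, and horizontal cell sums from 426 to 608 and 423 to 614. The part of these cells in the Chat difference was not tested.

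Among the transcription factors, Tfap2b was called rhythmic in both genotypes. Tfap2a and Tfap2b encode AP-2 factors that set amacrine and horizontal cell fate, and Pax6 is a master regulator of eye development that stays on in inner retinal neurons. Tfap2b had 2769.6 ± 242 (SD, n = 5) normalized counts at ZT9, its lowest control group, and 3096 ± 304 (SD, n = 4) at ZT21, its highest, although without the libraries that stood apart ZT17 was higher (3147). The single control values were 2725.6, 2665.8, 2466.4, 2875.4 and 3114.7 at ZT9 and 2766.3, 2959.2, 3187.5 and 3472.9 at ZT21. In diabetic retinas the lowest group was again ZT9, with 2486.4, 2587.6, 2905.0, 3122.4 and 2512.5, and the highest ZT17, with 3221.1, 3080.9, 3392.2 and 2969.5. The groups overlapped, and 1 library at diabetic ZT5 (3441.9) was above every library at ZT17.

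The rhythm of Tfap2b had p = 0.0364 (permutation) in control and 0.00813 in diabetic retinas, with relative amplitudes of 4.77% ± 1.78 (SE) and 5.85% ± 2.39 (SE) and acrophases of ZT19.7 ± 1.39 h (SE) and ZT19.3 ± 1.60 h (SE). After adjustment over all genes neither passed (adjusted p = 0.183 and 0.0662). The libraries that stood apart were not the highest of their groups for this gene, and both calls held without them (permutation p = 0.0487 and 0.0139), while the control call was lost without the libraries with lens RNA (p = 0.0940). Tfap2a had its highest mean at ZT17 in both genotypes, 869.9 ± 121 (SD, n = 5) and 878 ± 114 (SD, n = 4), with the control peak moving to ZT21 without the libraries that stood apart (809.7 against 792 at ZT17). It was not called rhythmic (permutation p = 0.156 and 0.158). Pax6 had its lowest group mean at ZT21 in both genotypes, 3639 ± 348 (SD, n = 4) for control and 3705 ± 91.5 (SD, n = 5) for diabetic libraries. At ZT17 its means were 3997 in control and 4101 in diabetic libraries, against 3851 and 4105.5 at ZT5. Pax6 too was not called rhythmic (permutation p = 0.737 and 0.293).

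Between genotypes, the AP-2 factors and Pax6 were within narrow limits. The interval of the difference was -5.84% to 7.99% for Tfap2a, -5.69% to 3.07% for Tfap2b and -4.21% to 4.30% for Pax6.

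In control retinas calretinin had the widest daily range of group means among the 9. The mean level of Calb2 was 2055 ± 309 (SD, n = 5) at ZT9, 2704 ± 382 (SD, n = 5) at ZT17 and 2714 ± 297 (SD, n = 4) at ZT21, a ratio of 1.32 between the highest and the lowest group. The single values were 2128.3, 1592.5, 1913.2, 2353.9 and 2284.6 at ZT9 and 2422.3, 2497.4, 2930.6 and 3005.4 at ZT21. These 2 control groups did not overlap, but they were picked for being lowest and highest. In diabetic retinas the libraries gave 1806.8, 2052.8, 2617.6, 2245.7 and 2057.0 at ZT9 and 2814.5, 3228.2, 2212.0 and 2577.9 at ZT17, which overlapped. Replicates were also spread widely, from 1542 to 2635 at control ZT1. Calb2 was called rhythmic in control (p = 0.0326, permutation, adjusted p = 0.172) and not in diabetic retinas (p = 0.0609), with relative amplitudes of 13.1% ± 4.02 (SE) and 9.03% ± 3.79 (SE). The difference in rhythm was not detected (interaction, unadjusted p = 0.670), and the control call was lost without the 3 libraries that stood apart (permutation p = 0.11). Acrophases were ZT18.9 ± 1.17 h (SE) and ZT19.6 ± 1.65 h (SE), and the genotype difference had an interval of -6.87% to 9.99%.

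**Figure D4:**
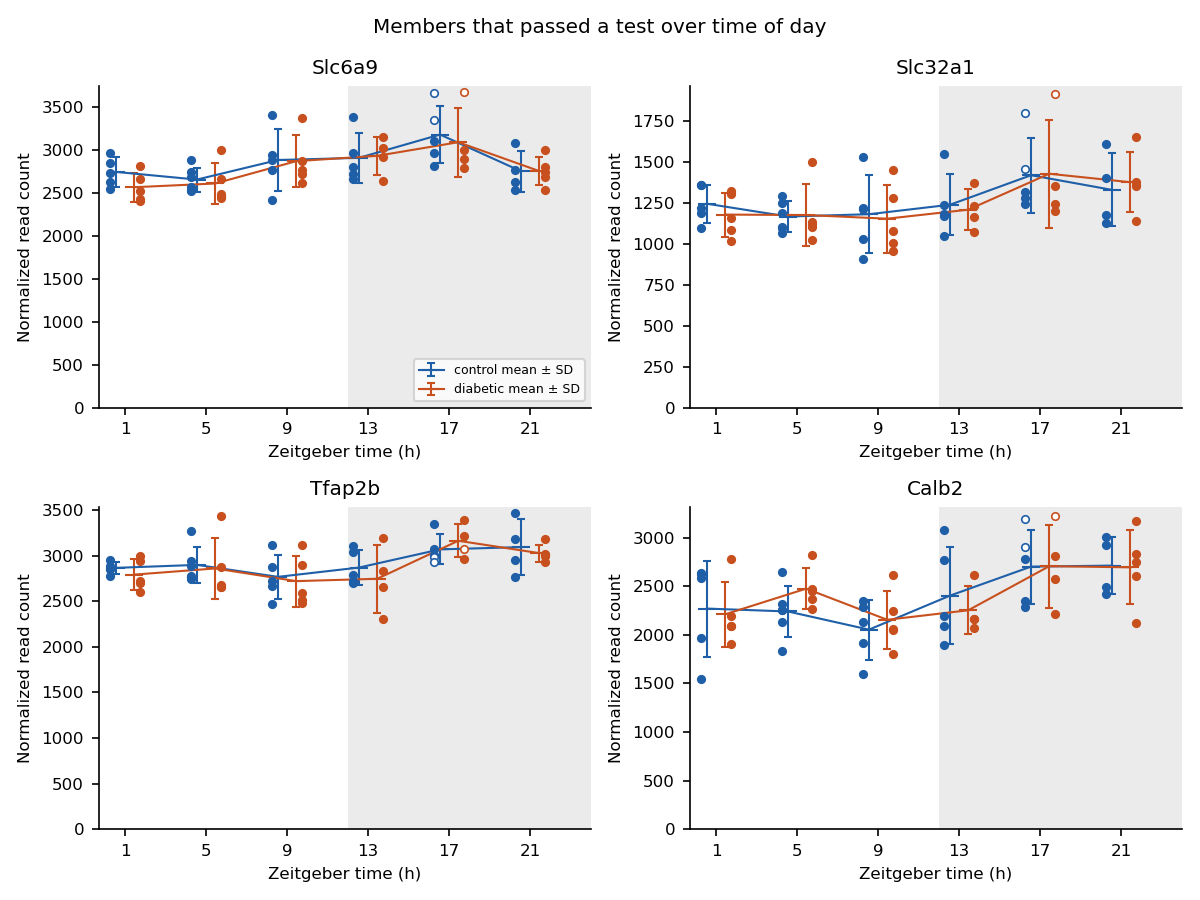
Normalized read counts of Slc6a9, Slc32a1, Tfap2b and Calb2 against zeitgeber time in control (blue) and diabetic (orange) retinas, with each library as a point, means joined by lines, bars for the SD, the dark period shaded and the 3 libraries that stood apart as open points. In Slc6a9 the ZT17 means, 3179 and 3090 normalized counts, are the highest, and the open points lead the ZT17 groups in Slc6a9, Slc32a1 and Calb2 but not in Tfap2b.

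Over the members as a set, 3 of 9 were called rhythmic in control (Slc6a9, Tfap2b and Calb2), beside 21.8% of all expressed genes, and 2 of 9 in diabetic retinas (Slc6a9 and Tfap2b), beside 23.9%. With adjusted p-values the counts were 0 of 9 beside 8.23%, and 1 of 9 beside 10.3%. Cosine fits placed 8 of the 9 acrophases in the dark period in both genotypes, beside 47.2% of the 19120 genes for control and 49.1% for diabetic libraries, with relative amplitudes over the 9 of 1.03% to 13.1%. Most of these members were not called rhythmic, and several varied together from library to library, so the 8 are not independent. The acrophase of Pax6 fell in the light period, but in control retinas it was not defined, with an SE of 9.35 h and an amplitude of 1.03% ± 2.38 (SE), and it moved to ZT21.5 without the libraries with lens RNA. The differential rhythm test, a cosine by genotype interaction in edgeR, called 0 of 9 members, and 0 had an unadjusted p under 0.05, beside 0% and 3.44% of all genes. DESeq2 also called 0 of 9. Fitted acrophases differed between the genotypes by -1.41 h (Gad1) to 2.44 h (Chat, whose amplitude in diabetic retinas was 3.92% ± 3.63 (SE)). Without the 3 libraries that stood apart these differences were -0.26 h for Gad1 and 5.34 h for Chat, and the range over the 9 ran from -0.51 h (Slc6a9) to that of Chat. Without the libraries with lens RNA the range ran from -2.02 h (Gad1) to 6.62 h (Pax6).

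A 24 h cosine was also tested in both genotypes together, a test added after the values were seen. It called 4 of 9 members, beside 31.1% of all genes: Slc6a9 (adjusted p = 0.000583), Calb2 (0.00501), Slc32a1 (0.00614) and Tfap2b (0.0205). Without the 3 libraries that stood apart, Slc6a9 (0.00518), Tfap2b (0.0249) and Calb2 (0.0268) still passed, Slc32a1 did not (0.0594), and Gad2 did (0.0133, against 0.0764 with all libraries), which again made 4 of 9, beside 25% of all genes. Between ZT17 and ZT5, edgeR called 1 of 9 members in control retinas (Slc6a9), beside 15.1% of all genes, and 0 of 9 in diabetic retinas, beside 7.36%. An unadjusted p under 0.05 was found for 3 of 9 in control and 2 of 9 in diabetic retinas, beside 30.9% and 21.3% of all genes. DESeq2 called 1 of 9 in diabetic retinas (Slc6a9, adjusted p = 0.0499), beside 9.96% of the genes with an adjusted p. The median log2 difference over the members was 0.22 in control and 0.12 in diabetic retinas, against -0.028 and -0.015 over all genes, and 8 of 9 were higher at ZT17 in each. Without the 3 libraries that stood apart, the median fell to 0.11 in control and 0.054 in diabetic retinas, against 0.00111 and -0.00621 over all genes, with 8 and 7 of 9 higher at ZT17 and 0 of 9 called in either, beside 5.04% and 5.19% of all genes. With both genotypes in 1 contrast 2 of 9 passed, beside 27.2% of all genes, and 0 of 9 without the libraries that stood apart, beside 13.7%.

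**Figure D5:**
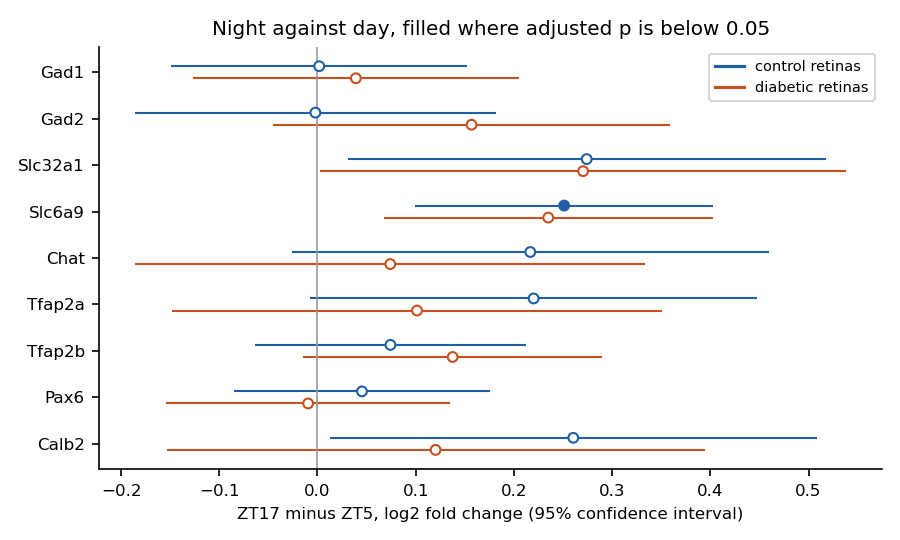
Log2 fold change of ZT17 against ZT5 for the 9 members in control (blue) and diabetic (orange) retinas, with 95% confidence intervals from edgeR and filled points where the adjusted p is below 0.05. Slc6a9 in control retinas, at 0.25, is the 1 filled point, and the Gad1 values lie at 0.0018 and 0.039.

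In the wider list, 5 of 56 genes were higher and 1 lower at ZT17 than at ZT5 in control retinas, beside 7.42% and 7.66% of all genes, and 3 were higher and 0 lower in diabetic retinas, beside 3.63% and 3.73%. The genes that passed in both genotypes were Abat and Meis2. Abat, GABA transaminase, which breaks GABA down, had a log2 fold change of 0.21 ± 0.067 (SE), adjusted p = 0.0255 in control and a log2 fold change of 0.23 ± 0.074 (SE), adjusted p = 0.0476 in diabetic retinas. Meis2, a homeobox factor of GABAergic amacrine cells, had a log2 fold change of 0.24 ± 0.067 (SE), adjusted p = 0.0123 and a log2 fold change of 0.33 ± 0.074 (SE), adjusted p = 0.00271. Without the 3 libraries that stood apart the counts were 1 higher in control and 1 higher in diabetic retinas, beside 2.85% and 2.77% of all genes. The adjusted p of Abat was then 0.340 and 0.171, and that of Meis2 0.0743 and 0.00728. By sublist, with all libraries, the genes past the threshold in control and diabetic retinas were 1 and 1 of 5 for GABA uptake and breakdown, 3 and 0 of 15 GABA receptor genes, 0 and 1 of 6 glycine genes, 0 and 0 of 9 acetylcholine genes and 2 and 1 of 21 tested identity genes. In the rhythm test 10 of 56 wider genes were called in control and 18 in diabetic retinas, beside 21.8% and 23.9% of all genes, with acrophases in the dark period for 8 and 17 of them. Both genotypes called 6 of these, Abat and Meis2 among them.

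Markers of other cells moved between ZT5 and ZT17 as well. Of 5 retinal pigment epithelium markers 4 were higher at ZT17 in each genotype, with summed levels of 477 to 2128 at ZT5 and 1684 to 2921 at ZT17 in control, and 338 to 498 and 967 to 2638 in diabetic libraries. Of 6 bipolar cell markers 5 were higher in control and 2 in diabetic retinas, with sums of 20557 to 22744 and 24311 to 27455 in control, and 18675 to 21643 and 22923 to 25890.5 in diabetic libraries. Müller glia sums were 36209 to 40273 and 43521 to 46081 in control libraries, with 1 of 5 markers higher, and 33578 to 44270.0 and 41148 to 48536 in diabetic libraries, with 0 of 5. Of 6 rod markers 2 were lower in each genotype. Of 5 cone markers 2 were lower in control and 1 in diabetic retinas, with sums of 11599 to 12431 and 10526 to 11649 in control, and 10603 to 11581 and 10260.4 to 12406 in diabetic libraries. The lens gene tested was higher at ZT17 in control retinas, where the summed level reached 21701 in 1 library against at most 91.6 at ZT5, and it did not pass in diabetic retinas. No marker of ganglion (7) or horizontal cells (3) passed in either. Of all the markers on these lists, the lens gene Lim2 was at 0 in every library. The part of these markers in the changes of Slc6a9 and Slc32a1 was not tested.

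From library to library, several members varied together, across transmitter lines. Each level was taken as its deviation from the mean of its group, on the log2 scale, over 58 libraries, and 36 pairs of members were compared with permutations within groups. The points share the library, its cell makeup and its normalization, and the part of these was not tested. Slc32a1 and Slc6a9 varied most closely (Pearson r = 0.918 and Spearman rho = 0.888, adjusted permutation p = 3.27e-05 and 3.60e-05), and without the 2 libraries farthest from the median of Slc32a1 r was 0.899. The GABA enzymes varied together (Pearson r = 0.805 and Spearman rho = 0.795, adjusted permutation p = 3.27e-05 and 3.60e-05, and r = 0.777 without the 2 farthest). Pax6 varied with Tfap2a (Pearson r = 0.770 and Spearman rho = 0.739, adjusted permutation p = 3.27e-05 and 3.60e-05, and r = 0.770) and against Gad1 (Pearson r = -0.443 and Spearman rho = -0.376, adjusted permutation p = 0.00377 and 0.0140, and r = -0.417). Of the 36 pairs, 23 were positive and 2 negative with an adjusted p of r under 0.05, and the smallest p that the permutations can give is 1e-05. An r of at least 0.317, the lowest of the 23, was reached by 23.5% of all pairs of the 11233 genes with a mean of at least 100 normalized counts. Without the 3 libraries that stood apart 23 pairs were positive and 1 negative, with r = 0.896 for Slc32a1 and Slc6a9 and r = 0.832 for Gad1 and Gad2.

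Across the 12 group means, genes most alike to each member were sought by Pearson's r among 11233 genes with a mean of at least 100 normalized counts. They were Arl4c and Pdha1 (r = 0.963 and 0.957) for Gad1, Cbx5 and A530017D24Rik (r = 0.896 and 0.895) for Gad2, and Gtf3c1 and Uba1 (r = 0.989 and 0.983) for Slc32a1. For Slc6a9 they were Oplah and Gfra2 (r = 0.956 and 0.938), and for Chat Gng7 and Olfm2 (r = 0.964 and 0.938). Among those most like Tfap2b was Cntnap1 (r = 0.973). Calb2 was most like Sncg and Nmnat2 (r = 0.975 and 0.970), and Pax6 most like Cttnbp2 and Sybu (r = 0.889 and 0.851). For Tfap2a the first was a row whose symbol had been turned into a date in the table, with r = 0.960, and the second Cacng3 (r = 0.956). Sncg, the closest to Calb2, is a ganglion cell marker. These values describe likeness over 12 points chosen from many genes, and carry no test.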

How the data were processed

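RNA of 58 single retinas was sequenced as ribosome-depleted total RNA. Per the submitters' processing notes, reads were checked with FastQC, aligned with STAR 2.7.4a to GRCm38.p5, counted with HTSeq 0.11.1 and normalized with DESeq2 1.26.0. The values deposited by the authors are raw read counts per gene, neither normalized nor filtered, in 1 column per library. Library totals ran from 7773117 to 22147398 reads, so Chat, with 68 to 288 reads, is least precise. Genes with a median above 4 normalized counts (DESeq2 1.42.0 size factors) were kept. Genotypes were compared with edgeR 4.0.16 in R 4.3.3 (quasi-likelihood, TMM, Benjamini-Hochberg over 19120 genes), over all time points with genotype alone, and at each time point and between ZT17 and ZT5 in 1 fit of 12 groups. Differential rhythmicity was a cosine by genotype interaction in edgeR. Rhythm used a re-implementation of empirical JTK_CYCLE (6 phases in steps of 4 h, 5 widths, 1000000 shuffled series, 200000 for alternatives) in Python 3.11.15 with numpy 2.4.6 and pandas 2.3.3. Figures were drawn with matplotlib 3.10.9. Acrophase and relative amplitude came from a least-squares cosine. The edgeR and rhythm steps were tested on simulated data. Gene positions and exonic lengths came from another Gencode release than the one used for counting.

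The members and lists were chosen with earlier results of these data known. The text names all 9 members, genes of a wider list that passed between genotypes or in both ZT17 against ZT5 contrasts (at most 20), and the 2 genes most like each member, of which 1 is not reported here. The sources used here do not say whether a mouse gave 1 or both retinas, so p-values measure the spread between these libraries. Alternatives were another filter, normalization and tool, each library left out, a block for replicate number, and, added after seeing the data, libraries that stood apart or held lens RNA left out, and tests with both genotypes together.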

Additional observations from a re-analysis of the deposited data

Results flagged for a closer look

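A single library lay far from the rest of its group, by Dixon's criterion at the 95% level, in 9 of 108 combinations of a member and a group, where chance gives about 1 in 20. Diabetic ZT5 replicate 4 accounted for 3 of them, all high: Slc32a1 at 1501.2 against 1021 to 1135 normalized counts in the others, Tfap2a at 1049.4 against 707 to 801, and Tfap2b at 3441.9 against 2659 to 2874. Tfap2a was also high in control ZT5 replicate 4 (913.3 against 662 to 742) and in diabetic ZT9 replicate 4 (968 against 639.7 to 726). Chat was high in diabetic ZT17 replicate 3 (225.7 against 162 to 173), a library that also stood apart over all genes. Calb2 was high in diabetic ZT13 replicate 1 (2620.3 against 2073 to 2163), Pax6 in control ZT13 replicate 4 (4402.3 against 3818 to 3913), and Gad1 was low in diabetic ZT5 replicate 5 (2825.1 against 3193 to 3337).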

How the results depend on the processing

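Chat was no longer called between genotypes without the filter on low counts or with the replicate block (0 members each, against 1), and each library left out in turn gave 0 to 1. The call was lost, with an adjusted p up to 0.0681, without any 1 of control ZT1 replicates 1, 2, 3, 4 and 6, control ZT13 replicates 2, 3 and 5, control ZT17 replicate 2, control ZT5 replicates 2, 4 and 6, control ZT9 replicates 1, 2 and 3, diabetic ZT1 replicate 1, diabetic ZT17 replicates 3, 4 and 5, diabetic ZT21 replicates 1, 3 and 5, diabetic ZT5 replicates 2, 4 and 5, diabetic ZT9 replicates 3 and 4. Its log2 difference stayed between 0.17 and 0.21. At every single time point, and for differential rhythmicity, 0 members were called under all settings and with any library left out. Between ZT17 and ZT5 in control retinas, the 1 member called became 2 with the replicate block, 0 without the 3 libraries that stood apart, and 0 to 1 with 1 library left out, Slc6a9 being lost without replicate 1 or 3 of control ZT17 (adjusted p up to 0.121). In diabetic retinas, 0 became 1 with the replicate block, 1 with DESeq2, and 0 to 1 with 1 library left out, where Slc6a9 passed without diabetic ZT5 replicate 4 (adjusted p = 0.0249). With both genotypes together, 2 became 0 without the 3 libraries that stood apart, and 1 to 4 with 1 library left out. Slc32a1 was lost there without control or diabetic ZT17 replicate 3 (adjusted p up to 0.135). The 24 h cosine over both genotypes called 4 members, and 4 to 5 with 1 library left out. The 3 members rhythmic in control retinas became 1 without the 3 libraries that stood apart, beside 18.5% of all genes, 0 with adjusted p-values, 5 with the replicate block in edgeR's cosine model (4 in that model without the block, both at an unadjusted p under 0.05, beside 30% and 26.4% of all genes), and 1 to 5 with 1 library left out. Slc6a9 was lost in 8, Tfap2b in 9 and Calb2 in 7 of those 30 fits (p up to 0.0807, 0.0900 and 0.0612), the libraries being control ZT13 replicate 5, control ZT17 replicates 1, 3, 4 and 5, control ZT5 replicates 1, 2 and 6 for Slc6a9, control ZT17 replicates 2 and 4, control ZT21 replicates 2, 3 and 4, control ZT5 replicate 2, control ZT9 replicates 1, 2 and 3 for Tfap2b, and control ZT17 replicates 1, 2 and 3, control ZT21 replicates 3 and 4, control ZT9 replicates 2 and 3 for Calb2. The 2 members rhythmic in diabetic retinas became 1 with adjusted p-values, 1 with edgeR's test over all 6 time points (unadjusted p under 0.05, beside 22.3% of all genes, and 0 after adjustment, beside 10.2%), 4 with the replicate block in the cosine model (3 without the block, both unadjusted, beside 28.7% and 26.9%), and 2 to 5 with 1 library left out, with Slc6a9 and Tfap2b called in all 28 fits. Same-numbered control and diabetic libraries deviated together with r from -0.201 to 0.547, 15 of 26 pairs over 0.1 (median 0.113), against 17 of 114 other pairs (median -0.0261), and 14 of 26 control libraries correlated best with their own number. This is a hint of pairing from the data and not from the design. Since no label ties the numbers to a litter or batch and not every pair was over 0.1, the fits without the block were kept. Over all genes, the 572 called between genotypes became 919 with time point as a covariate, and those between ZT17 and ZT5 in control retinas 964 instead of 2884 without the 3 libraries that stood apart. With both genotypes together the same removal left 2621 of 5194. Genes called between genotypes at ZT1 numbered 2, and 1 without the filter, 8 with DESeq2 and 4 without the lens RNA libraries. At ZT5 they were 4, and 10 with the block and 24 with DESeq2. At ZT9 they were 1, and 3 without the filter, 2 with the block, 4 with DESeq2 and 0 without the libraries that stood apart or those with lens RNA. At ZT13 they were 0, and 1 with DESeq2. At ZT17 they were 32, and 60 with the block, 90 with DESeq2 and 9 without the libraries that stood apart. At ZT21 they were 0, and 1 without the filter and 2 with DESeq2. Differential rhythmicity called 0, and 3 without the filter. The cause of these changes was not tested.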
